A study of Arabidopsis thaliana with 4 samples.

Results

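Glutamate receptor-like (GLR) genes encode plant relatives of the ionotropic glutamate receptors of animal nerve cells. The 6 GLR genes GLR1.4, GLR2.7, GLR2.8, GLR3.3, GLR3.5 and GLR3.6 were followed in rosette leaves of Arabidopsis thaliana with and without whitefly nymphs. They were taken as every probe set whose only gene symbol in the platform annotation is one of these names, which gave 6 probe sets, 1 per gene, of 13513 probe sets with 1 gene. The genes were chosen by name with their signals and changes between infested and uninfested leaves already known, so the levels and changes of the 6 genes are given as a description. Calls from a fit over all probe sets are given further down, but nothing about the 6 genes is read from them.

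The channels open when an amino acid binds and let calcium and other cations into the cell. Arabidopsis has 20 such genes in 3 clades, with 4 in clade 1, 9 in clade 2 and 7 in clade 3. Clade 3 holds the channels that carry electrical and calcium signals from a wounded leaf to other leaves: GLR3.3 acts in the phloem and GLR3.6 beside the xylem. In clade 2, GLR2.7 and GLR2.8 are known for the calcium influx that follows recognition of microbial patterns. GLR1.4 of clade 1 is known as a channel gated by methionine.

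Infested leaves came from plants of ecotype Columbia that carried whitefly nymphs (Bemisia tabaci type B, the silverleaf whitefly), insects whose stylets draw sap from the phloem. Adults, 100 per plant, were set on 21-day-old plants for 7 days, and leaves were taken on day 28, from plants 7 weeks old, when nymphs of the second and the third instar were present. Uninfested leaves came from untreated Columbia plants of the same age, caged in the same way and matched for leaf development. Both groups grew under 8 h of light per day, and each of 2 arrays per group held RNA pooled from 2 replicate experiments, or 20 plants.

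All 4 arrays were one-colour Affymetrix ATH1 arrays with median signals between 185.25 and 205.2. The leaf gene RCA, for Rubisco activase, read 19115 and 17614 in infested and 19523 and 21392 in uninfested leaves, above 99.9% of all probe sets; it was picked as a tissue check after its values were seen, because none of the 5 mesophyll markers on the list had a probe set with 1 gene. The 3' to 5' signal ratio of an actin control, a sign of RNA integrity, was 5.70 and 6.56 on the infested against 2.697 and 3.88 on the uninfested arrays. It was lower on the infested arrays for GAPDH (0.975 and 1.02, against 1.17 and 1.15) and for ubiquitin (2.08 and 1.87, against 2.77 and 2.34). A second actin control had 1.31 and 1.43 on the infested against 1.43 and 1.42 on the uninfested arrays. The part of RNA integrity in the changes below was not tested. With 2 arrays per group, their number limits the precision of every value.

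The loci of the 6 genes are AT3G07520 (GLR1.4), AT2G29120 (GLR2.7), AT2G29110 (GLR2.8), AT1G42540 (GLR3.3), AT2G32390 (GLR3.5) and AT3G51480 (GLR3.6).

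Of the 6 genes, the 3 of clades 1 and 2 had more than 2-fold higher signal in infested leaves, and the 3 of clade 3 lay close to their level in uninfested leaves. GLR2.8 had signals of 250.6 and 397.6 in infested leaves, against 97.1 and 94.8 in uninfested leaves. Both infested arrays lay far above both uninfested ones, which read nearly the same. The mean was 2.97-fold higher on the log2(signal + 16) scale (log2 change 1.57 ± 0.26, limma SE, n = 2 per group). Every SE given here is that of limma, which also draws on the spread of the other probe sets tested. The uninfested signals of GLR2.8 were below the filter on dim probe sets, which corresponds to a mean signal of 116, so the gene entered the table of tested probe sets through its infested arrays.

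GLR2.7, the neighbour of GLR2.8 in the genome, read 864.3 and 1381 in infested leaves, against 424.6 and 376.0 in uninfested leaves. The lower infested array was still above the higher uninfested array, and the mean was 2.67-fold higher (log2 change 1.42 ± 0.26, SE). GLR1.4 had 522.6 and 681.4 in infested leaves and 277.5 and 221.1 in uninfested leaves. Its groups did not overlap either, and it was 2.32-fold higher (log2 change 1.22 ± 0.21, SE).

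In clade 3, GLR3.3 had signals of 403.9 and 406.6 in infested leaves, against 376.1 and 367.7 in uninfested leaves. The infested arrays were the higher ones, but by a small margin: the log2 change was 0.12 ± 0.16 (SE). GLR3.3 was also the member whose infested arrays differed least, with an SD on the log2 scale of 0.0065. In uninfested leaves its SD was 0.022, close to the 0.021 of GLR2.8. The SE of 0.16 is wider than both SDs of GLR3.3 because limma draws on the spread of other probe sets.

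GLR3.5, which has been described in guard cells, had 219.1 and 162.7 in infested leaves, against 252.9 and 212.7 in uninfested leaves. The groups overlapped, since infested 1 was above uninfested 2, and the log2 change was -0.27 ± 0.22 (SE). GLR3.6 had 133.1 and 110.5 in infested leaves, against 176.2 and 106.5 in uninfested leaves. Here the uninfested arrays spread more widely than the infested ones and enclosed them, and the log2 change was -0.16 ± 0.28 (SE). The change of GLR3.3 and of GLR3.6 was smaller than its limma SE and that of GLR3.5 slightly larger, which does not show that the levels were equal. For GLR3.3 that SE reflects mostly the spread of other probe sets and not that of its own arrays.

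**Figure D1:**
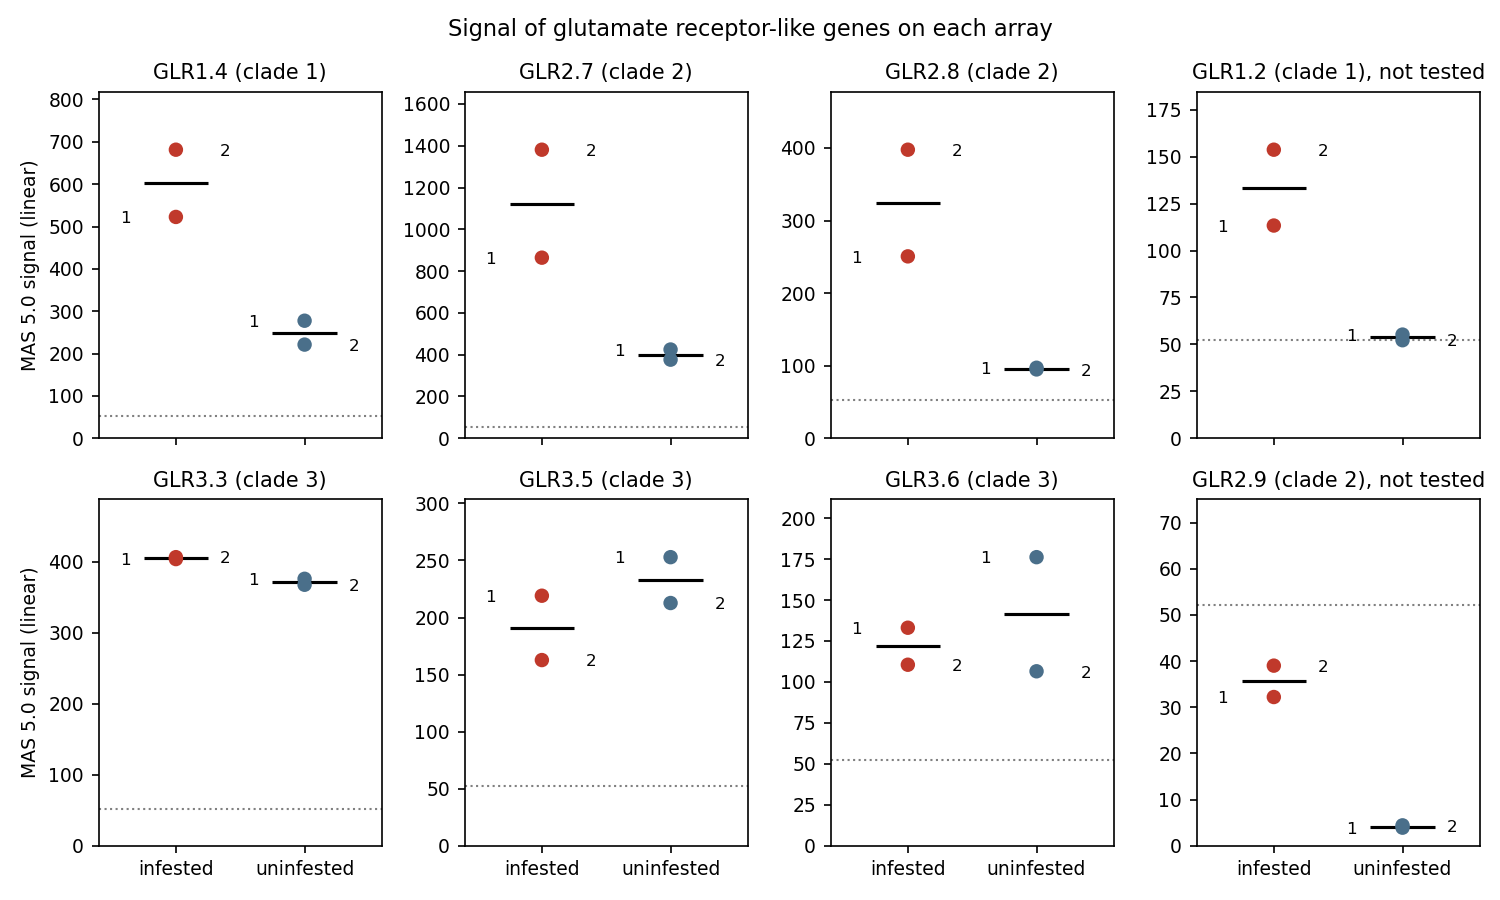
MAS 5.0 signal on a linear scale for each of the 4 arrays (points, numbered by replicate) and the group mean (bar), with infested leaves at the left and uninfested leaves at the right of each panel. The dotted line is the highest reading of 27 control probe sets for bacterial transcripts, 52.1, and the panels of GLR1.2 and GLR2.9 show relatives too dim to test. GLR1.4, GLR2.7 and GLR2.8 are higher on both infested arrays, while GLR3.5 and GLR3.6 overlap between groups.

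Each clade was then summarised by the mean of its 3 genes. The genes of clades 1 and 2 were on average 2.64-fold higher, with a median log2 change of 1.42, and the genes of clade 3 had a mean log2 change of -0.11 and a median of -0.16. Over all 13648 probe sets tested the median log2 change was 0.04, with quartiles of -0.28 and 0.32. After each gene was centred on its own mean, clades 1 and 2 minus clade 3 stood at 0.37 and 1.14 on the infested arrays and at -0.82 and -0.68 on the uninfested arrays. The difference between the clades' changes was 1.51 on the log2 scale, and it ran from 1.05 to 1.96 over the 4 ways to pair an infested with an uninfested array. Its SD between arrays was 0.54 in infested and 0.096 in uninfested leaves. The genes were chosen with this contrast known, so the gap carries no test.

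Across the members, limma with Benjamini-Hochberg adjustment over all probe sets called 3 of 6 higher in infested leaves, GLR1.4, GLR2.7 and GLR2.8, and 0 lower. Over all probe sets tested, 2.83% were called higher and 2.54% lower, or 386 and 347 probe sets, against 342 and 589 with median scaling. The groups did not overlap, with infested above uninfested, for 4 of 6 members, which are the 3 genes named and GLR3.3, beside 33.8% of all probe sets tested, and with infested below for 0 of 6, beside 28.1%. At least 2-fold higher were 3 of 6, beside 4.21%. Nothing about the members is read from these counts, as the choice of genes used the same values. The calls rest on the whole table and its filter: without uninfested 1, without uninfested 2, or with every probe set tested, 0 of all probe sets were called, and so 0 of the 6. GLR2.7 lost its call with median scaling and without a variance trend, which left 2 of 6. With a filter at the 60th percentile GLR2.8, GLR3.5 and GLR3.6 were not tested.

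The members did not change to the same extent in both pairs of same-numbered arrays. For GLR2.7 the log2 change was 1.00 in the first pair and 1.83 in the second. For GLR2.8 it was 1.24 and 1.90, and for GLR1.4 it was 0.88 and 1.56. In all 3 genes infested 2 read higher than infested 1, by 0.37 for GLR1.4, 0.67 for GLR2.7 and 0.63 for GLR2.8 on the log2 scale. Infested 2 was also above infested 1 for 322 of the 386 probe sets called higher, or 83.4%, beside 41.6% of all probe sets tested. GLR3.3 had 0.10 and 0.14, GLR3.5 had -0.19 and -0.36, and GLR3.6 had -0.37 and 0.05, so GLR3.6 differed in sign between the pairs.

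**Figure D2:**
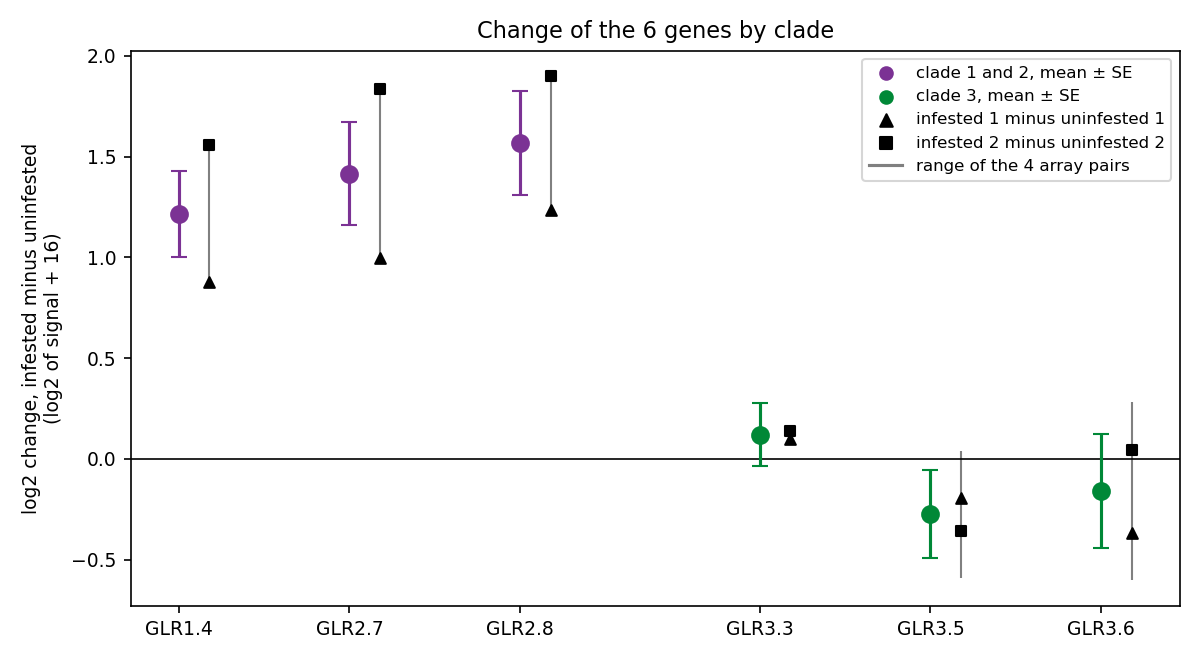
Log2 change of each gene, infested minus uninfested, on the log2(signal + 16) scale. Circles with bars are the mean and its limma SE (n = 2 arrays per group), triangles and squares the first and second pair of same-numbered arrays, and grey lines the range over the 4 array pairs. The changes of clades 1 and 2 lie between 1.22 and 1.57 and those of clade 3 between -0.27 and 0.12.

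Other genes of the family could be followed in part. Of the 20 family genes, 8 had a probe set with 1 gene, namely the 6 members, GLR1.2 and GLR2.9. GLR2.2 and GLR2.3 shared 1 probe set, and 10 are unnamed here and were not analysed. GLR1.2 (AT5G48400), a channel of pollen tubes gated by D-serine, had signals of 113.3 and 153.7 in infested leaves, against 55.2 and 52.2 in uninfested leaves. Its mean was below the filter, so it was not tested. The uninfested signals barely exceeded the highest bacterial controls on their arrays, 49.2 and 48.8, while the infested ones were above the 52.1 and 41.7 of theirs.

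GLR2.9 (AT2G29100) read 32.2 and 39.0 in infested leaves, against 3.9 and 4.4 in uninfested leaves. All 4 values are below the highest bacterial control of their array, so no fold is given. The probe set shared by GLR2.2 and GLR2.3 read 2.5 and 1.5 in infested leaves and 1.1 and 1.5 in uninfested leaves, also below these controls.

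In the order of RefSeq genes, GLR2.9, GLR2.8 and GLR2.7 are consecutive protein-coding genes. Related genes side by side can share probes. The probe sets of these 3 carry no suffix for shared probes, but their sequences were not used here, so cross-hybridization between them was not tested. Of the 10 genes within 5 places on either side of this row, 4 had a probe set with 1 gene and 0 passed the filter. Around GLR1.4, which has no GLR gene beside it, 4 of 10 such neighbours were tested and 0 were called, with log2 changes from -0.37 to 0.17. The neighbourhood of GLR3.6 had 6 tested genes, of which AT3G51440 alone was called (log2 change 1.83 ± 0.24, SE, limma adjusted p = 0.0334). GLR3.5 lies next to GLR3.7, which is unnamed here, and 4 of their 10 neighbours were tested, with 0 called. Near GLR3.3, 3 of 10 neighbours were tested and 0 called, with log2 changes from -0.03 to 0.70.

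For each clade, the genes whose profile over the 4 arrays lay nearest to the clade mean were sought among 7330 tested probe sets with 1 gene. Nearness was the Euclidean distance between log2(signal + 16) values centred on each gene's mean. Nearest to clades 1 and 2 were AT5G40690 (distance 0.072), AT3G51660 (0.094), AT4G35110 (0.11), AT1G15790 (0.14) and AT2G28710 (0.15), against a median distance of 1.47. AT5G40690 had 218.6 and 331.7 in infested leaves, against 96.7 and 80.0 in uninfested leaves. Likeness in this profile, the gap between the infested arrays included, is what the gene was picked for.

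The mean profile of clade 3 was nearly flat. The nearest genes were DME (0.036), the DEMETER DNA glycosylase that removes methylated cytosine, AT1G20220 (0.049), AT3G27880 (0.051), AT1G26640 (0.052) and AT4G02120 (0.053), against a median of 0.51. GLR3.3, GLR3.5 and GLR3.6 themselves lay 0.33, 0.22 and 0.25 from this mean, at places 1563, 484 and 692 among the candidates. The genes listed were picked for nearness to the mean of clade 3, and their distances to its members were not computed. GLR1.4, GLR2.7 and GLR2.8 lay 0.25, 0.079 and 0.20 from the mean of clades 1 and 2, at places 27, 2 and 16. Each member is part of the mean it was measured against, which brings it closer, while the candidates are not. The members were also chosen with their changes known. These distances rest on 4 arrays and describe likeness only.

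**Figure D3:**
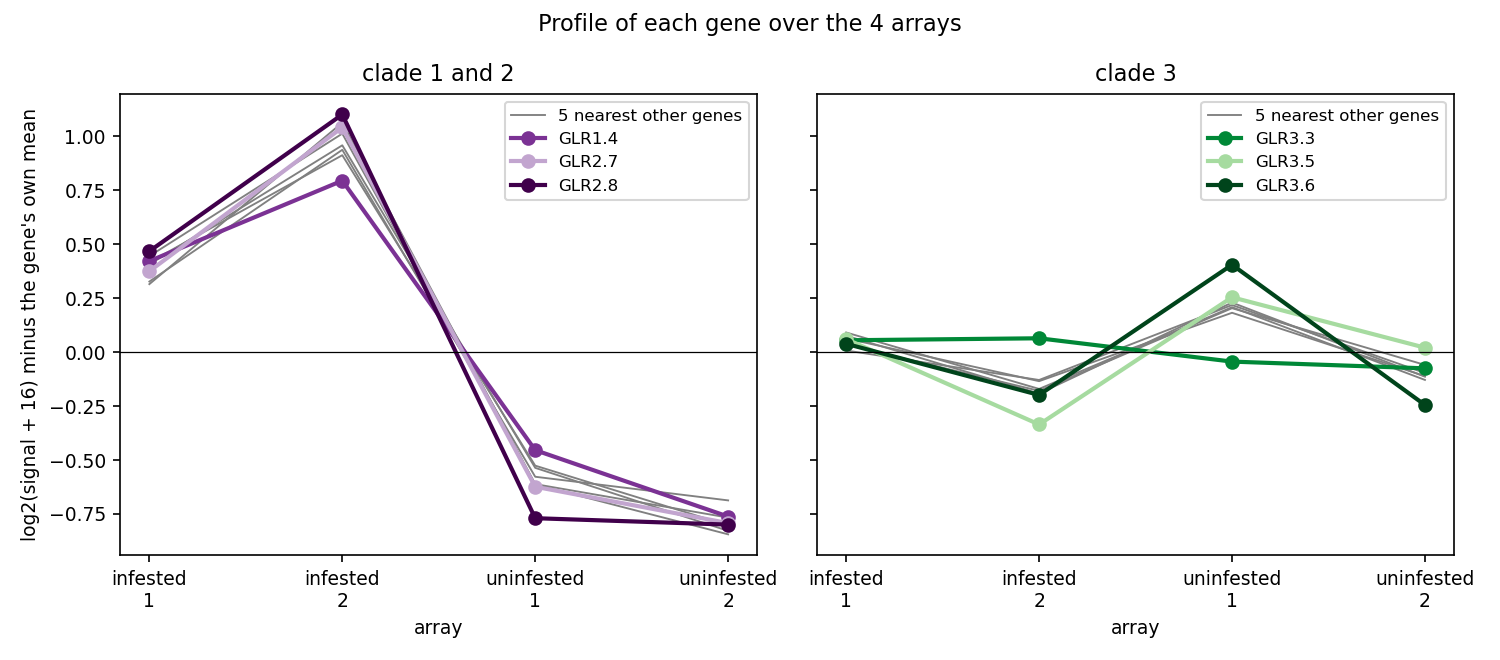
Profiles over the 4 arrays as log2(signal + 16) minus each gene's own mean, for clades 1 and 2 (left) and clade 3 (right). Coloured lines are the members and grey lines the 5 nearest other genes; lines only join the points of a gene. The members at the left share a profile with infested 2 at the top, and those at the right lie between -0.34 and 0.40.

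Genes that act before or after the channels were followed through 4 lists. In the list of amino acid supply, which covers synthesis and transport of the ligands, 1 of 29 genes was tested. That gene, SR, encodes serine racemase, which makes D-serine, and it read 256.0 and 153.1 in infested leaves, against 250.5 and 256.7 in uninfested leaves (log2 change -0.33 ± 0.26, SE, limma adjusted p = 0.454). In the list of other calcium channels, pumps and exchangers, 3 of 46 were tested and 0 passed in either direction, with a median log2 change of -0.03. AT4G22120 had 141.8 and 89.7 in infested leaves, against 196.9 and 195.9 in uninfested leaves (log2 change -0.72 ± 0.25, adjusted p = 0.142). AT1G11960 had a log2 change of 0.04 (adjusted p = 0.897), and the Na+/Ca2+ exchanger gene AT1G53210 had -0.03 (adjusted p = 0.913).

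Of the 4 lists, that of calcium sensors and the kinases and regulators behind them alone held called genes with all 4 arrays. The other lists had only 1, 3 and 1 tested genes. Of the 51 genes in the calcium sensor list 10 were tested, all of them calmodulin-like genes. Its kinases and other regulators were not tested. Of the 10 genes 4 rose and 0 fell, against 2.83% and 2.54% of all probe sets tested. The list was drawn up with earlier results of these data known, among them that of CML41. Its median log2 change was 1.16, beside 0.04 over all probe sets. CML41, a calmodulin-like calcium sensor gene, had 1865 and 2048 in infested leaves, against 226.4 and 216.9 in uninfested leaves. AT3G47480 had 1294 and 2130 in infested leaves and 344.2 and 253.3 in uninfested leaves (log2 change 2.43 ± 0.29, SE, limma adjusted p = 0.0306). AT3G01830 rose by a log2 change of 2.05 (adjusted p = 0.0426) and AT5G39670 by 2.01 (adjusted p = 0.0452); both lost their call without a variance trend.

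The other tested genes of the list did not pass. CML37 had 141.5 and 400.0 in infested leaves, against 92.1 and 76.2 in uninfested leaves (limma adjusted p = 0.134, 0.0358 with the replicate block). For CML43 the log2 change was 0.96, at an adjusted p of 0.0996 and of 0.0273 when blocked. The uninfested mean signals of CML37 and CML43, 84.15 and 99.4, lay below the filter of 116. Both genes were thus tested through their infested arrays. CML23 had 0.61, CML38 0.45, AT2G41090 -0.05 and CML42 -0.35. With the block 6 of the 10 genes rose, CML37 and CML43 among them, beside 9.19% of all probe sets. Calls over the 4 lists changed with the arrays kept. Without infested 1 they took in SR and AT4G22120 of other lists, both lower in infested leaves. Without uninfested 1 or without uninfested 2 all were lost.

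In the list of wound signalling and jasmonate responses, the processes that GLR3.3 and GLR3.6 act ahead of, 1 of 23 genes was tested. This was OPCL1, an enzyme gene of jasmonate synthesis, with 1701 and 1898 in infested leaves, against 1936 and 1833 in uninfested leaves (log2 change -0.07 ± 0.16, SE, limma adjusted p = 0.814). Most genes of these 4 lists are unnamed here, so the lists cover their pathways thinly.

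**Figure D4:**
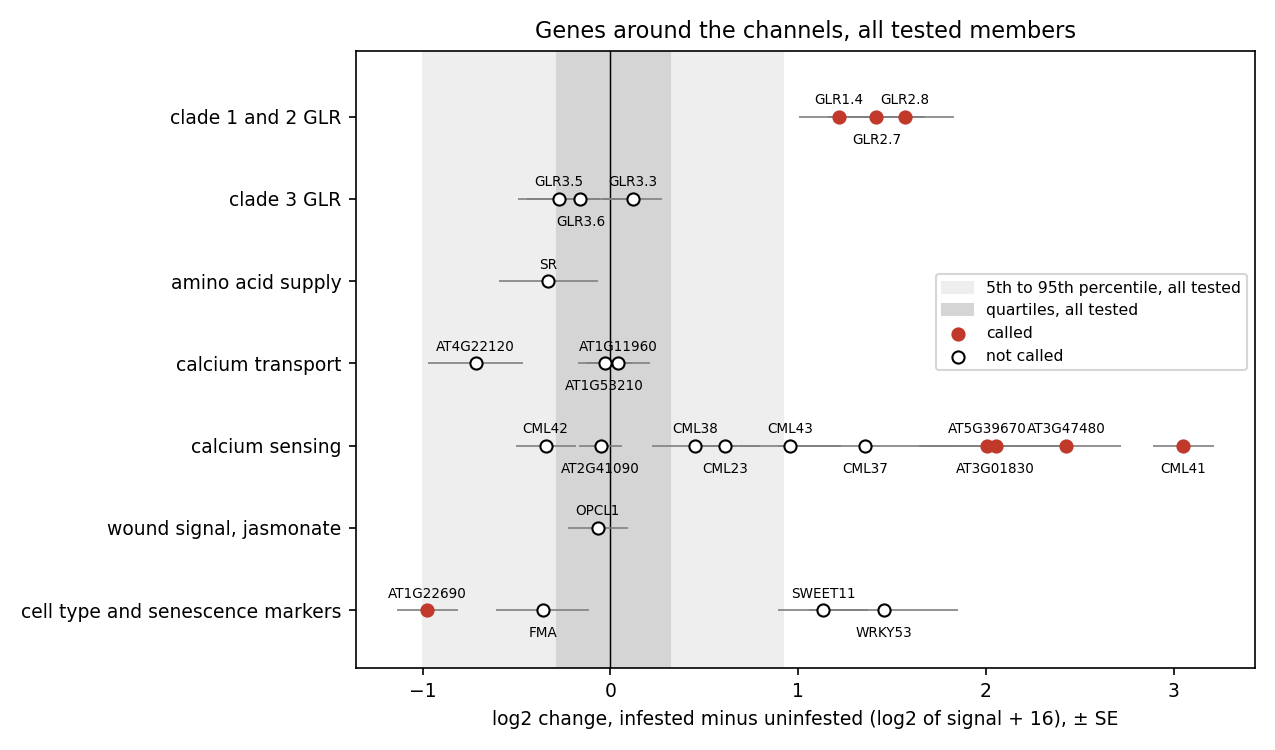
Log2 change, infested minus uninfested, with its limma SE for every tested gene of the GLR family, of the 4 lists and of the marker lists. Filled points passed limma's test over all probe sets and open points did not; the dark and light bands hold the middle of all 13648 probe sets tested, from the 25th to the 75th and from the 5th to the 95th percentile. Members of clades 1 and 2 lie right of the light band, as do 4 filled calcium sensor genes between 2.01 and 3.05. The open points of CML37, CML43, SWEET11 and WRKY53 also lie right of it. The members were chosen with these values known.

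Markers of cell types were read beside these changes, because in pooled leaf RNA fewer cells of a type and less RNA per cell cannot be told apart. The phloem list had 1 of 9 genes with a probe set, SWEET11, a sucrose exporter gene, at 4179 and 4691 in infested leaves, against 1622 and 2493 in uninfested leaves (limma adjusted p = 0.0553, 0.00423 with the replicate block). The guard cell list had 2 of 6, with summed signals of 1194 and 1018 in infested leaves, against 2094 and 1995 in uninfested leaves. AT1G22690 fell, with a log2 change of -0.98 (adjusted p = 0.0411). FMA encodes a transcription factor of guard cell fate. It read 256.1 and 163.9 in infested leaves, against 253.4 and 283.5 in uninfested leaves (log2 change -0.36, adjusted p = 0.386), so its groups overlapped. Of 6 senescence genes WRKY53 alone was read, with 1034 and 2196 in infested leaves, against 437.3 and 665.7 in uninfested leaves (adjusted p = 0.0919, 0.00243 with the block). None of the 6 xylem markers had a probe set with 1 gene. No marker with a probe set was at 0. SWEET11 and WRKY53, not called without the block, were thus high on the arrays where GLR1.4, GLR2.7 and GLR2.8 were high. AT1G22690 was low on them, while FMA overlapped. Of all probe sets tested, 33.8% had both infested arrays above both uninfested ones and 28.1% had both below. The part of these cell types in the GLR values was not tested.

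The changes of the members were also computed with other scalings. Quantile normalization gave log2 changes of 1.17 for GLR1.4, 1.36 for GLR2.7 and 1.53 for GLR2.8, and median scaling gave 1.19, 1.39 and 1.55 in the same order. GLR3.3 came to 0.08 and 0.09 with these 2 scalings, a shift larger than the small spread between its arrays. GLR3.5 came to -0.30 with either, and GLR3.6 to -0.17 and -0.18. With a pseudocount of 1 GLR2.8 had 1.71, and with one of 64 it had 1.25, the widest move with the pseudocount among the 6. Leaving out infested 1 brought GLR2.7 to 1.75 and leaving out infested 2 to 1.08. GLR3.6 alone changed sign, to 0.16 without uninfested 1, against -0.48 without uninfested 2. Its mean fell below the filter on dim probe sets when uninfested 1 was left out.

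**Figure D5:**
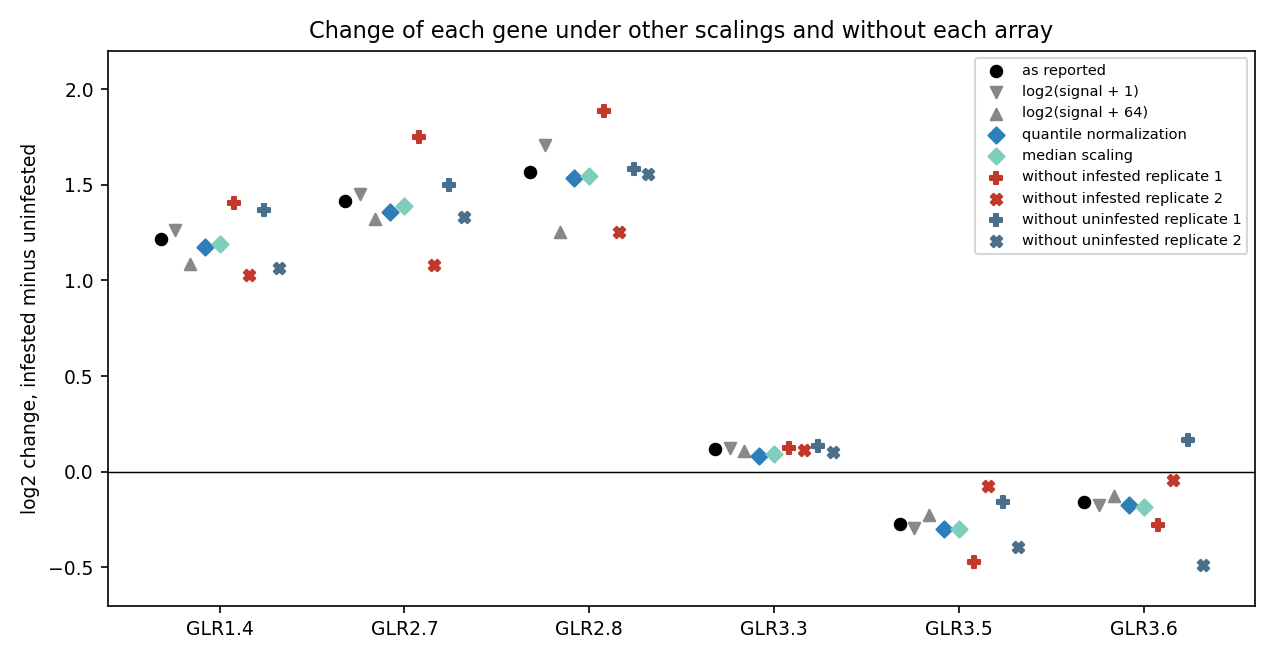
Log2 change of each gene, infested minus uninfested, as reported (black circles), with other pseudocounts (grey), with other normalizations (diamonds) and without each infested (red) or uninfested (blue) array. GLR1.4, GLR2.7 and GLR2.8 stay between 1.03 and 1.89, GLR3.3 and GLR3.5 keep their sign, and GLR3.6 crosses 0 without uninfested 1.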

How the data were processed

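The deposited table holds intensity values on a linear scale, MAS 5.0 signals that the authors computed with standard settings, per the series text. The mean signal trimmed by 2% at each end was 500.0 on every array. Without 64 control probe sets, 22746 remained. Intensities were taken as log2(signal + 16). Probe sets whose mean lay under the 40th percentile were left untested, and 13648 were tested. Fold changes on this scale understate the change of dim genes.

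The test was limma 3.58.1 in R 4.3.3, with lmFit and with eBayes under a variance trend and no block. A call is a Benjamini-Hochberg adjusted p under 0.05. Arrays were grouped by their titles. The p-values and SEs rest on the spread between pools, which limma draws toward a trend over all probe sets tested. That trend had a weight of 3.66 prior degrees of freedom, against 2 from a probe set's own arrays. With the replicate block it was 7.26 against 1. An exact two-sided test of 2 against 2 arrays cannot go below 0.333. Infested and control pools came from the same set of experiments by the series text, and titles give both groups the numbers 1 and 2, so equal numbers were taken as pairs. Across probe sets, the deviations from the group mean correlated at 0.264 between arrays of equal number.

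Gene names came from the platform annotation, updated to RefSeq TAIR10.1 by gene number: 13436 of the 13513 single-gene probe sets matched, 503 had several genes and 8730 are unnamed here. Named genes are all GLR genes with a probe set, the 4 tested genes of each list with the smallest p, and the 5 nearest profiles per clade; CML37, CML43, CML23, CML38, AT2G41090, CML42, RCA and AT3G51440 were named after their values were seen. The members and lists were chosen with earlier results of these data known. On simulated data with 13648 probe sets tested, the fit called 44% of 100 probe sets changed by 2 and 2% of 100 changed by 1 on the log2 scale, with 1 false call. The changed probe sets were drawn from bright ones, above the mean level of every member but GLR2.7, and arrays were simulated without pairing. These shares therefore do not describe dimmer genes. The planned sequence features and promoter motifs were not analysed here.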

Additional observations from a re-analysis of the deposited data

How the results depend on the processing

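The difference between the changes of clades 1 and 2 and of clade 3, 1.51 on the log2 scale, was 1.59 and 1.3005 with pseudocounts of 1 and 64, 1.48 with quantile normalization and 1.51 with median scaling. Without each array in turn it ran from 1.12 to 1.89. The replicate block leaves this value as it is by construction. Of 48 values of single members under these alternatives, the block left aside, 47 kept their sign, and GLR3.6 without uninfested 1 did not.

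The number of calls over all probe sets, 386 higher and 347 lower, depended on the setting. It was 0 and 0 with every probe set tested (4656 at an unadjusted p under 0.05), 342 and 589 with median scaling, 277 and 199 without a variance trend, and 1254 and 1403 with the replicate block. Without each array in turn it ran from 0 to 2087 higher and from 0 to 2553 lower. The 4 calls over the lists of ligand supply, calcium transport, calcium sensing and wound signalling became 0 with every probe set tested and 2 without a variance trend, where AT3G01830 and AT5G39670 lost theirs, and ran from 0 to 10 without each array. With 1 array left in a group, the spread comes from the arrays of the other one, and the lone array is assumed to vary like those. The block also added calls for CML37 and CML43, for the markers SWEET11 and WRKY53, and for AT1G15790; it changed no other call among the members, list genes, markers and nearest profiles named. Dim signals limit GLR1.2 and GLR2.9.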
